A study of Mus musculus with 4 samples.

Results

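Balanced large clusters of H3K27ac peaks were stretches of the mouse genome in which acetylated peaks lay close together and both cultures of the study contributed similar numbers of them. They were chosen by the peak lists themselves. The rows of the Cre and GFP lists were pooled, peaks separated by at most 12.5 kb on a chromosome were joined, and a cluster was kept when it held 12 or more peaks of which the Cre list gave over 35% and under 65%. This left 268 of 6995 clusters. Of the 350 clusters with 12 or more peaks, the 268 made up 76.6%, while 40 leaned to the Cre list and 42 to the GFP list. Peak numbers, the Cre share of peaks and the positions of the peaks selected the clusters, so these values are a description and were not tested.

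The cells were primary chondrocytes of C57Bl/6 mice grown as micromass cultures, in which dense spots of cells lay down cartilage matrix. The Cre culture, labelled hdac3-knockout, received an adenovirus carrying Cre recombinase, and the GFP culture, labelled wild-type, received a GFP control adenovirus. Each culture gave 1 library immunoprecipitated with an antibody to acetylated lysine 27 of histone H3, so no difference between the cultures has a replicate check. The share of cells transduced, the alleles behind the knockout label, the age of the mice and their number are not stated in the labels. Input DNA of each culture, 2 libraries, was not analysed here.

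H3K27ac is laid down by the acetyltransferases CBP and p300 at active promoters and enhancers and is removed by histone deacetylases such as HDAC3, which works inside the NCoR and SMRT corepressor complexes. Long runs of closely spaced H3K27ac peaks, often called super-enhancers or stretch enhancers, tend to lie at genes that give a cell its identity, which in chondrocytes are genes for cartilage matrix and for the transcription factors that drive it. Pooling by distance treats neighbouring enhancers as a unit, and the unit may hold promoters too.

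The lists held 13130 Cre and 12873 GFP peaks, with a most frequent expected pileup of 1.01 fragments for Cre and 0.949 for GFP (1.06 times). All 6 chondrocyte markers examined (Col2a1, Acan, Sox9, Col9a1, Matn3 and Comp, each with 10 kb on both sides) had peaks in both lists, 75 Cre and 87 GFP peaks in total. Col9a1 alone gave 43 and 51 of these. Sox9 and Comp had more Cre peaks, and Col2a1, Acan, Col9a1 and Matn3 had more GFP peaks. Among the 4 markers each of osteoblasts, tendon fibroblasts, muscle, fat, endothelium, blood and neurons, Sp7 had 2 Cre and 3 GFP peaks, Cd68 had 3 GFP peaks, and the others had none in either list. The balanced clusters held 3122 Cre peaks (23.8% of that list, exact 95% interval 23.1 to 24.5) and 3199 GFP peaks (24.9%, 24.1 to 25.6). Intervals here cover counting error only, since neighbouring peaks and fragments of 1 library are not independent. In a bulk culture, fewer acetylated cells and less acetylation per cell cannot be told apart.

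Several balanced clusters contained microRNA genes, and the mature sequences are shown because the same microRNA seed occurred in clusters at separate Hox loci. Of 1005 microRNA hairpins in the RefSeq table for GRCm38.p6, 20 lay inside 16 balanced clusters, with 33 mature sequences. Below, capitals mark the seed (bases 2 to 8 from the 5′ end) and each line gives the microRNA and its sequence.
mmu-miR-196b-5p: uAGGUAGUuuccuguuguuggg
mmu-miR-196a-5p: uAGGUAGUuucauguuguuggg
mmu-let-7c-5p: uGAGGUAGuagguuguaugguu
mmu-miR-140-3p: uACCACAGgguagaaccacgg
mmu-miR-27b-3p: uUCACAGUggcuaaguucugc
mmu-miR-24-3p: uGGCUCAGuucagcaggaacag
mmu-miR-125b-5p: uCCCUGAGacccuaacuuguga
mmu-miR-199a-3p: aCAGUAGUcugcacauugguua
The seed AGGUAGU was the only one shared between hairpins among the 33 sequences. It belongs to miR-196b, from chr6:52230081-52230165 on the minus strand in the Hoxa10 cluster, and to miR-196a, from chr15:102973350-102973434 on the plus strand in the Hoxc10 cluster. Both Hox loci encode positional regulators of the skeleton.

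The microRNA hairpins differed in how near the called peaks lay. Mir140, a microRNA gene characteristic of cartilage within Wwp2 (chr8:107551244-107551313), lay 27 bp from the nearest Cre peak and 5 bp from the nearest GFP peak. Mir125b-1 (chr9:41581926-41582002), inside the long noncoding host Mir100hg, overlapped a Cre peak and lay 3 bp from a GFP peak. Mir199a-2, in the Dnm3 cluster, overlapped peaks of both lists. In that cluster 6 Cre and 3 GFP summits lay in Dnm3os, a noncoding RNA gene. Mir196b lay 73 bp from a Cre and 71 bp from a GFP peak. Mir24-1, in the Aopep cluster with Mir23b and Mir27b, was 1139 bp from the nearest Cre and 1548 bp from the nearest GFP peak. Mirlet7c-2 (chr15:85706603-85706697) differed between the lists, with a GFP peak 15 bp away and the nearest Cre peak 4912 bp away. Mir196a-2 likewise had its nearest Cre peak at 439 bp and its nearest GFP peak at 2699 bp. A hairpin without a peak on it can still belong to a transcript that starts elsewhere in the cluster.

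Promoter sequence is shown for 3 genes whose upstream windows were met by peaks of both lists inside a balanced cluster: Hapln1, whose cluster had the lowest Cre share of covered length, Pcbp1, whose cluster was the most dense in peaks, and Bcl6, a transcriptional repressor with a cluster of intermediate size. Each line gives the 250 bases before a transcription start listed in RefSeq, read 5′ to 3′ on the gene's strand, with capitals on the strings that were searched: TGACTCA (the AP-1 site), TGTGGTT (the core of RUNX sites), ACAATGG (a SOX site) and CACGTG (the E-box).
Hapln1: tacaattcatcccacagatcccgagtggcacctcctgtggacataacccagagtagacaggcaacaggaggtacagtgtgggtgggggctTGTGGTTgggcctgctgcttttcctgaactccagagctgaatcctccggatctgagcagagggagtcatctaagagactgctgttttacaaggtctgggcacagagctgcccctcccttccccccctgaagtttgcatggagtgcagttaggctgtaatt
Pcbp1: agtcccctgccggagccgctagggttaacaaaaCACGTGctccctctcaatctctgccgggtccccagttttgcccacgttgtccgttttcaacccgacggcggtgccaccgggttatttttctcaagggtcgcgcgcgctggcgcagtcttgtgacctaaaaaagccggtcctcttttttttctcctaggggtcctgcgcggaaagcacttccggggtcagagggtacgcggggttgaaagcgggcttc
Bcl6: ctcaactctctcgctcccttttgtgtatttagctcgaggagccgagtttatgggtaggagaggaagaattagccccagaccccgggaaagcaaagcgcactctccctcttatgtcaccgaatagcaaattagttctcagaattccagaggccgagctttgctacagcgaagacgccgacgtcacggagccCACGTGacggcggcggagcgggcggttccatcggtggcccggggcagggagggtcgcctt
The Hapln1 line is chr13:89540386-89540635 on the plus strand, with the RUNX core 160 bases before the start. The Pcbp1 line is chr6:86526190-86526439 on the minus strand, with an E-box 217 bases before the start. The Bcl6 line is chr16:23988853-23989102 on the minus strand, with an E-box 60 bases before the start. Peaks on the 300-base window that adds 50 bases after the start had pileups of 14 fragments (Cre) and 13 (GFP) at Hapln1, 24 and 24 at Pcbp1, and 17 and 25 at Bcl6. These peaks met the window but did not always cover the capitals. The Pcbp1 string lay in the peaks of both lists, the Hapln1 string in the GFP peak only, and the Bcl6 string in neither.

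Promoters were searched for genes with a peak near either gene end in a balanced cluster. The intervals of 3 strings took in their share of all promoters and that of the SOX string lay below it. Both strands were searched in 300-base windows, and none of the 4 strings contains another. Of 21887 protein-coding genes, 243 (1.11%) had a peak of either list within 1 kb of an annotated gene end (a gene boundary) inside a balanced cluster, and 290 windows of 211 of these genes were in the RefSeq promoter table. Because the peak could lie at either end of the gene, a window need not meet a peak or lie inside a cluster. Peaks of both lists in balanced clusters met 43 windows, chromosome 18 left out. TGACTCA was in 6.21% of the 290 windows (interval 3.72 to 9.63) against 4.66% of all 21263 windows, TGTGGTT in 5.86% (3.45 to 9.22) against 4.71%, and CACGTG in 8.97% (5.94 to 12.9) against 7.84%. ACAATGG was in 1 of the 290 windows, 0.345% (0.00873 to 1.91), against 2.92% of all windows. The windows were richer in G and C than promoters at large, with a median GC content of 61.7% (60 to 63.3) against 56.3% and a median of 20.5 CpG pairs against 13. A match is a string of letters in a window, windows of 1 gene can share bases, and the part of base composition in these shares was not tested.

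The sizes of the balanced clusters spread widely around a small median. A cluster held a median of 17.5 peaks (quartiles 14 and 26, range 12 to 186) over a median span of 19.9 kb (quartiles 12.5 and 31.2, range 3.64 to 159), and 170 of the 268 held 20 or fewer peaks. Spans were under 10 kb in 47 clusters and 50 kb or more in 20. The 10 clusters with the most peaks, led by Wwp2 with 91 Cre and 95 GFP peaks, held 908 peaks, 14.4% of the total. Their hosts, the protein-coding genes with the most summits inside, were Wwp2, Aopep, Col9a1, Fndc3b, Nfix, Actn4, Xylt1, Synpo and Plod2, and the tenth contained no protein-coding gene. The other 258 held 5413 peaks, with a median of 17 peaks and a median span of 19.5 kb. Each cluster's own median gap between neighbouring sites had a median of 395 bp over these 258.

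**Figure D1:**
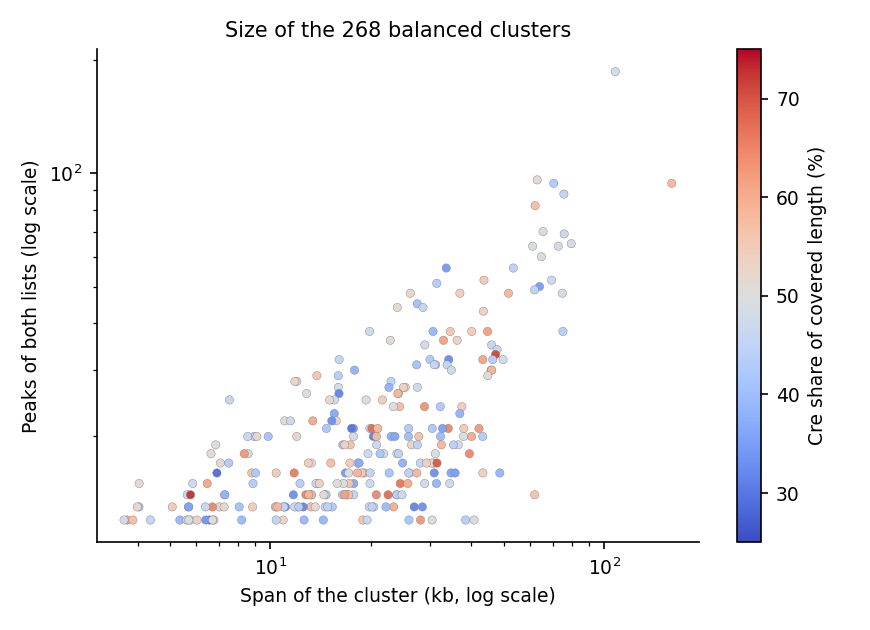
Each of the 268 balanced clusters is a point, with its span in kb on the x axis and its number of peaks on the y axis (both log scales), coloured by the Cre share of the bases that its peaks cover. Points reach from 12 peaks in 3.64 kb to 186 peaks in 108 kb, and the share of covered length runs from 29.3% to 72.1%.

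The balanced share of clusters was lowest among the smallest and highest among the largest. It was 58 of 86 clusters with 12 or 13 peaks, 76 of 94 with 14 to 17, 65 of 88 with 18 to 25, 51 of 63 with 26 to 49, and 18 of 19 with 50 or more. The share did not rise at each step. Peak number and Cre share both belong to the rule, so the order is a description, and the part of counting error was not tested. Among clusters of exactly 12 peaks, 25 of 42 were kept, and they had 5, 6 or 7 Cre peaks in 9, 8 and 8 clusters. A further 69 clusters of 11 peaks lay just under the minimum, 59 of them inside the range of shares.

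At both limits of the rule, clusters just inside and just outside it had shares less than 1 percentage point apart. The lowest shares kept were 35.3% at Serinc5 (6 Cre and 11 GFP peaks), a serine incorporator, and 35.7% at Has2, the hyaluronan synthase of cartilage, with 5 and 9 peaks. Just outside, 7 Cre and 13 GFP peaks gave exactly 35% at Pam, Dnm1, Chst11, Hoxc6 and another part of Zbtb20. The highest share kept was 64.7%, with 11 Cre and 6 GFP peaks at Zmiz1, Efemp2 and a cluster without a protein-coding gene. Lrp1, an endocytic receptor, lay just outside with 17 and 9 peaks (65.4%). Zmiz1 also hosted a cluster leaning to Cre (8 and 4 peaks). Zbtb20 hosted a balanced cluster (10 and 17) and 3 leaning to GFP.

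**Figure D2:**
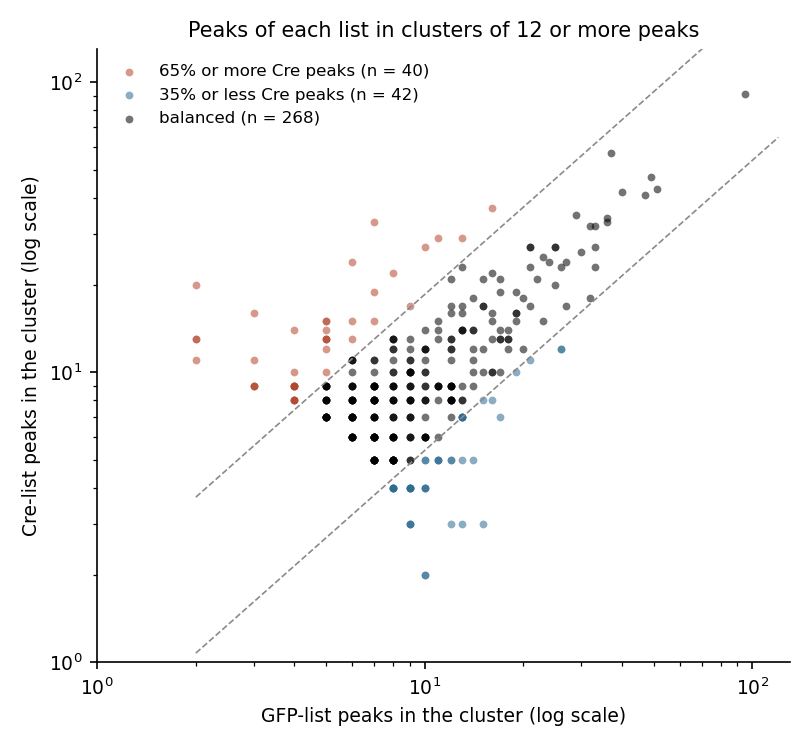
Each of the 350 clusters with 12 or more peaks is a point, with its GFP-list peaks on the x axis and its Cre-list peaks on the y axis (both log scales, darker where points coincide). Dashed lines mark Cre shares of 35% and 65%, between which the 268 balanced clusters lie, and the one at the upper right is Wwp2 with 91 Cre and 95 GFP peaks.

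The bases that peaks covered, which the rule did not use directly, were split nearly evenly but varied among clusters. Peaks in balanced clusters covered 901830 bp of the genome in the Cre culture and 953393 bp in the control, a Cre share of 48.6%, compared with 50.2% over the whole lists. The median share per cluster was 47.7% (interval 46.9 to 49.2). It was under 40% in 46 clusters, from 40 to 60% in 198 and over 60% in 24, and the GFP list covered more bases in 161 clusters against 107 for the Cre list. Peak numbers leaned less, with more GFP peaks in 124 clusters, more Cre peaks in 114 and equal numbers in 30.

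The clusters with the lowest Cre share of covered length were at Hapln1, which encodes the link protein that binds aggrecan to hyaluronan, Pdrg1 and Atp5g2, a subunit of ATP synthase. Hapln1 had 5 Cre peaks covering 1347 bp and 7 GFP peaks covering 3250 bp (29.3%), Pdrg1 had 1331 and 3168 bp (29.6%), and Atp5g2 had 1775 and 4098 bp (30.2%). At the other end, Gng5, a G protein subunit, had 3049 and 1178 bp (72.1%), Tbc1d10a had 5423 and 2250 bp (70.7%), and Efemp2, an elastic-fibre protein, had 3107 and 1399 bp (69.0%). The peak of highest fold enrichment, the peak caller's ratio of observed to expected fragments, had the higher fold in the list with more covered length at 5 of these 6 loci. Hapln1 was the exception, with a fold of 8.20 in the Cre and 7.15 in the GFP list and pileups of 20 and 13 fragments. The pileups of these peaks also went against the covered length at Atp5g2 (20 Cre, 17 GFP) and Gng5 (17 Cre, 23 GFP). With these pileups a single stretch lost or gained at the caller's threshold can change the covered length, and no replicate measures that change.

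Balanced clusters were mostly gaps. Peaks covered a median of 22.1% of a cluster's span (20.8 to 24.0), over 50% in 28 clusters and under 10% in 15. Overlapping peaks of the lists were merged into 4330 sites, a median of 12 per cluster, separated by 4062 gaps. The median gap was 413 bp (394 to 436), and 30.2% of gaps were under 200 bp, 55.4% under 500 bp and 71.6% under 1 kb. Only 7.26% were over 5 kb, yet 170 clusters had at least 1 such gap and 60 had a gap over 10 kb. The median gap was 490 bp (440 to 542) in leaning clusters and 513 bp (490 to 538) in clusters of 2 to 11 peaks. Since clusters were defined by peak number and distance, the comparison with smaller clusters reflects the rule and is given without a test.

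Within a single list, distances between neighbouring summits had a broad maximum between 300 and 600 bp. The median distance between neighbouring summits was 935 bp among Cre summits (894 to 976) and 894 bp among GFP summits (853 to 935), and 21.8% and 23.3% of the distances were under 500 bp. The fullest 50-bp class was 400 to 450 bp for Cre, with 123 pairs, and 450 to 500 bp for GFP, with 136 pairs. Short distances were limited by the peak calls: no 2 peaks of 1 list were closer than 52 bp in either library, and the shortest distance between summits in balanced clusters was 110 bp (Cre) and 112 bp (GFP). The distribution therefore describes called peaks and not single nucleosomes.

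**Figure D3:**
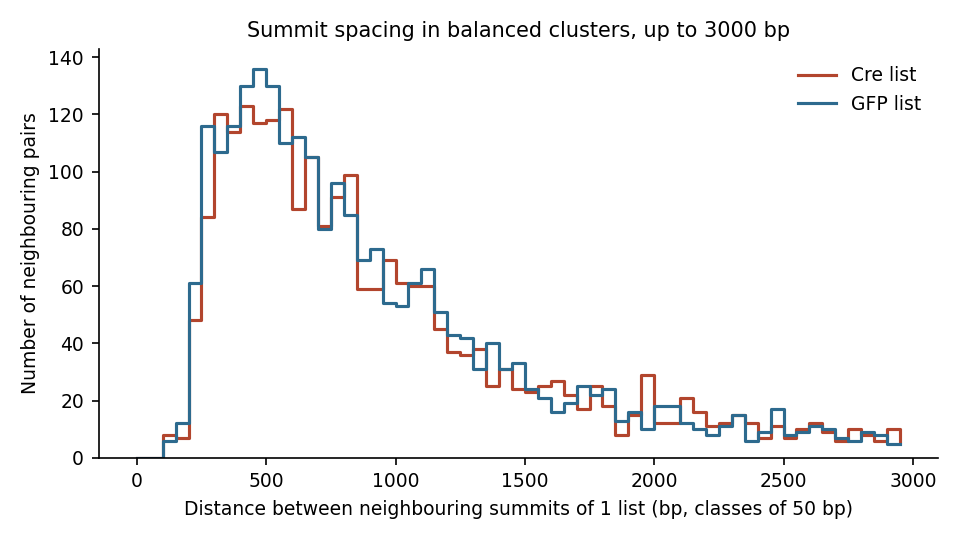
Number of neighbouring summit pairs of 1 list in balanced clusters (y axis) by their distance in classes of 50 bp (x axis, up to 3000 bp), for the Cre and GFP lists. Both lines have few pairs under 200 bp, a broad maximum between 300 and 600 bp, and then fall.

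Density ranged from compact clusters to long sparse ones. The median was 1.002 peaks per kb (0.949 to 1.08), and the range was 0.226 to 3.71. The 5 clusters most dense in peaks were at Pcbp1, an RNA-binding protein gene (3.71 per kb), Zc3h4, a zinc finger gene (3.32), P2ry10b, a purinergic receptor-like gene (3.29), Sox6 (3.25) and Arrdc3, an arrestin-domain gene (3.23). At Zc3h4, 13 Cre and 12 GFP peaks filled 73.1% of 7.54 kb, with no gap over 580 bp. The narrowest cluster, P2ry10b, was 3.64 kb with 5 Cre and 7 GFP peaks, and was the only balanced cluster on the X chromosome, followed by Arrdc3 (3.72 kb), Scaf1 (3.87 kb), a Sox6 cluster (3.99 kb) and Dock8 (4.04 kb).

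The sparsest cluster was at Ski, a corepressor of TGF-beta signalling, with 9 Cre and 5 GFP peaks over 61.8 kb, or 0.226 per kb, and only 1 of 13 sites shared. The next was the smaller of 2 clusters in Col11a1, which encodes a chain of type XI collagen, with 6 peaks of each list over 40.7 kb. The widest cluster, Fndc3b, spanned 159 kb at 0.591 peaks per kb. It was followed by Wwp2 (108 kb), Plod2 (79.6 kb), which encodes a collagen lysyl hydroxylase, Synpo (75.8 kb) and Nfix (75.6 kb).

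**Figure D4:**
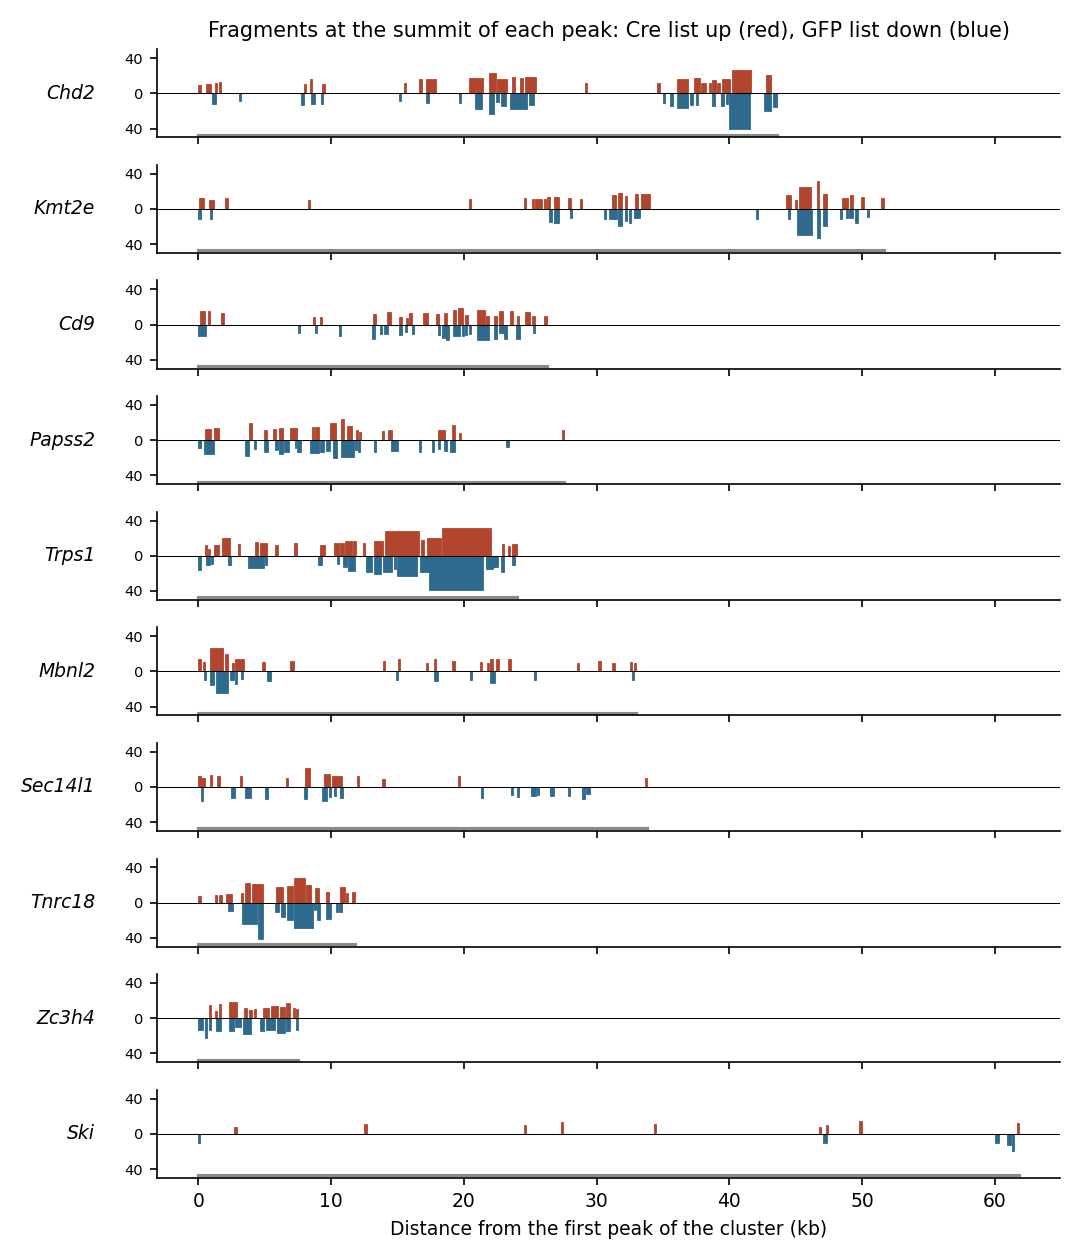
Peaks of 10 balanced clusters, named by host gene and chosen after their values were seen to span the range of sizes and densities, by distance from the first peak of the cluster (kb, x axis), with the number of fragments at the summit as height, Cre list above the line and GFP list below. Grey bars give the cluster's span. Trps1 and Tnrc18 are filled by wide peaks of both lists, Sec14l1 has a run of GFP-only sites towards its right end, and Ski has 14 peaks over 61.8 kb.

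A similar number of peaks did not mean that all called peaks overlapped, counting any overlap of at least 1 bp. Of the 4330 sites, 1514 (34.97%, interval 33.5 to 36.4) held peaks of both lists, 1355 only Cre peaks and 1461 only GFP peaks. The share of sites outside balanced clusters is not given here. Counted by peaks, overlap with the other list was lower outside, at 35.8% of Cre and 37.2% of GFP peaks against 56.6% and 54.3% inside. The shares inside depended on the definition. They were 26.5% and 25.9% for overlap of 50% of both peaks, and 86.0% and 84.5% for a peak of the other list within 1 kb. Of 4062 pairs of neighbouring sites, 892 were a Cre-only site beside a GFP-only site, 773 a Cre-only site beside a shared one and 845 a GFP-only site beside a shared one. A further 422 pairs were Cre-only on both sides, 493 GFP-only on both sides and 637 shared on both sides. The longest run of sites from 1 list in a cluster had a median length of 3, and was 5 or more in 22 clusters.

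Runs of 6 or more sites from 1 list occurred in 9 balanced clusters, 4 with Cre and 5 with GFP runs. Fndc3b had the longest, 10 Cre-only sites, within 57 Cre and 37 GFP peaks. Sec14l1, with 13 Cre and 18 GFP peaks, had 9 GFP-only sites in a row. Col9a1, which encodes a chain of type IX collagen, had 7 GFP-only sites within 43 Cre and 51 GFP peaks, and Cpe, a peptide-processing carboxypeptidase, had 7 within 13 and 17. Kmt2e had 7 Cre-only sites, Niban2 and Ski had 6, and Frmd8 and Csgalnact1 had runs of 6 GFP-only sites. Only at Csgalnact1, with 17 Cre and 15 GFP peaks, did the list with the run have the fewer peaks. In the other clusters, among them Ski (9 Cre and 5 GFP peaks), the list with the run also had the more peaks. Runs called in a single library have no replicate check.

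Peaks in balanced clusters overlapped the other list more often than peaks elsewhere. In the Cre list, 56.6% of them (54.8 to 58.3) overlapped a GFP peak, against 40.7% of the whole list and 35.8% (34.8 to 36.7) outside balanced clusters. In the GFP list, 54.3% (52.6 to 56.1) overlapped a Cre peak, against 41.4% of the whole list and 37.2% (36.2 to 38.1) outside. The rule requires peaks of both lists close together, so a raised overlap is built into the choice. The share varied little with size, from 54.2% to 60.2% of Cre peaks and from 53.6% to 56.2% of GFP peaks over the 5 classes of peak number.

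Taller peaks were shared more often, inside and outside balanced clusters. Among Cre peaks of balanced clusters with 7 to 9 fragments at the summit, 31.3% (26.6 to 36.3) were shared, and the share was 42.1% at 10 or 11 fragments, 54.7% at 12 to 14, 80.5% at 15 to 19 and 95.3% (91.3 to 97.8) at 20 to 29. In clusters of 2 to 11 peaks the matching shares were 19.6%, 28.8%, 43.1%, 64.2% and 85.6%. GFP peaks of balanced clusters gave 29.6%, 40.3%, 55.1%, 77.7% and 91.7%, against 25.2%, 30.2%, 44.9%, 64.1% and 88.1% in clusters of 2 to 11 peaks. The median pileup was 12 fragments in both lists, inside and outside balanced clusters. Peaks inside were wider, with medians of 220 bp (Cre) and 230 bp (GFP) against 189 and 191 bp outside. The part of width in the overlap was not tested. Clusters of 2 to 11 peaks had no limit on the Cre share and could hold peaks of a single list. A higher share in balanced clusters is therefore built into the choice at each height.

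**Figure D5:**
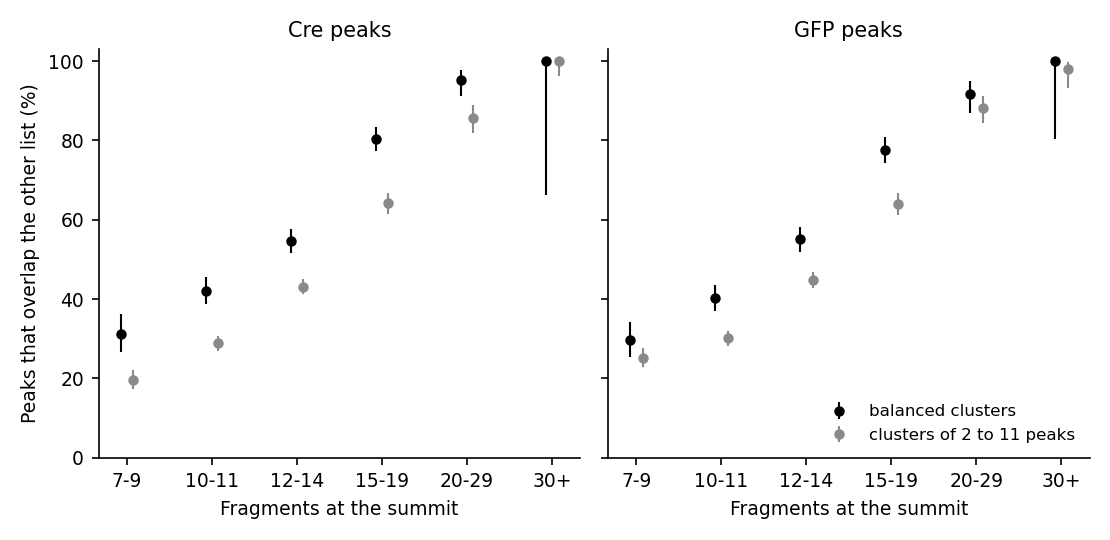
Percent of Cre peaks (left) and GFP peaks (right) that overlap the other list (y axis) by fragments at the summit (x axis), for balanced clusters in black and clusters of 2 to 11 peaks in grey, with exact 95% intervals for counting error. The black points lie above the grey ones in each class up to 29 fragments, and both reach 98% or more at 30 or more fragments. Only the balanced clusters had to hold peaks of both lists, so this order is built into the choice.

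Where peaks of the lists overlapped, their heights matched on balance. The 1551 overlapping pairs in balanced clusters had a median Cre to GFP pileup ratio of 1, with 701 higher in the Cre list, 676 higher in the GFP list and 174 equal, and 10th and 90th percentiles of 0.714 and 1.40. Summits of a pair were a median of 91 bp apart (85 to 99), compared with 61 bp (57 to 64) for 3398 pairs outside. The Cre peak and the GFP peak of highest fold in a cluster overlapped in 72 of 268 clusters (26.9%, 21.7 to 32.6) and lay over 5 kb apart in 89. The peaks of highest fold thus did not overlap between the lists in most balanced clusters. The matching share of other clusters is not given here, and the part of counting error was not tested.

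The strongest summits of balanced clusters, ranked by the fold of the authors' peak caller, stood above the typical one: over all balanced clusters the peak of highest fold had a median fold of 8.96 in the Cre and 9.75 in the GFP list, with a median pileup of 18 fragments in each. Deaf1, a transcription factor, led the Cre list with a fold of 17.9 and a pileup of 35, and had 16.9 and 32 in the GFP list on an overlapping peak. Rusc2, an adaptor protein gene (15.4 Cre, 12.8 GFP), Kmt2e, a SET-domain chromatin regulator (15.02 and 17.4), Cd200r3, an immune receptor gene (14.9 and 12.3), and Tnrc18 (14.4 and 21.5) followed, level with Rnf167, a ubiquitin ligase gene (14.4 and 15.4). Tnrc18, a chromatin protein gene, led the GFP list with a pileup of 41, and its Cre peak of highest fold, with 28, lay 3242 bp away. The Cre peak that overlapped the GFP peak of 41 fragments had 21 and a fold of 10.96, and the GFP peak that overlapped the Cre peak of 28 had 29. A tall pileup did not always give a high fold, and a GFP peak of 1601 bp at Chd2 had 41 fragments and a fold of 8.89. Kirrel, an adhesion molecule gene, had a fold of 20.5 in the GFP and 11.3 in the Cre list, on overlapping peaks with pileups of 39 and 28. Sec31a, a coat protein of secretory vesicles, had GFP and Cre folds of 17.96 and 13.4. The cluster on chromosome 15 without a protein-coding gene had 19.5 and 13.4, at summits 7037 bp apart. The summits also lay apart at Rusc2, Cd200r3 and Rnf167 (439, 486 and 21752 bp). Tnrc18 and Kirrel had the widest difference in fold among these, and a single library of each kind does not show whether it would recur.

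Wide peaks were more frequent in balanced clusters than outside. Peaks of 1 kb or more made up 1.54% of Cre peaks (48 peaks, 1.14 to 2.03) and 1.53% of GFP peaks (49, 1.14 to 2.02) inside, against 0.280% (28, 0.186 to 0.404) and 0.186% (18, 0.110 to 0.294) outside. Trps1, a zinc finger repressor of chondrocyte maturation, had the widest in both lists, 3691 bp with a pileup of 31 among Cre peaks and 4043 bp with 39 among GFP peaks. Its 23 Cre and 21 GFP peaks filled 69.4% of 24.0 kb. Outside Trps1, the cluster on chromosome 15 without a protein-coding gene had GFP peaks of 3501 and 2324 bp and a Cre peak of 2072 bp. GFP peaks over 2 kb were also called at Dnm3 (2737 bp), Ippk (2490 bp), Wwp2 (2332 bp), Frmd8 (2239 bp), Aff3 (2201 bp) and Foxc1 (2169 bp).

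Balanced clusters lay in gene interiors more than at gene ends. Of their 6321 summits, 11.6% (10.9 to 12.5) were within 1 kb of a gene boundary, 67.0% (65.8 to 68.1) inside a gene and 21.4% (20.4 to 22.4) intergenic. Outside balanced clusters, 30.8% (30.2 to 31.4) were at a boundary and 49.02% inside a gene, and in leaning clusters 6.61% (5.42 to 7.97) were at a boundary and 72.1% inside. The Cre and GFP lists had overlapping intervals in balanced clusters, with boundary shares of 11.9% (10.8 to 13.1) and 11.3% (10.3 to 12.5). Against the transcription starts listed in RefSeq, which cover 79.9% of protein-coding genes, 10.96% of summits were within 1 kb of a start, 16.99% lay 1 to 10 kb downstream of the nearest start, 9.40% lay 1 to 10 kb upstream and 62.6% were farther away.

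Most balanced clusters lay mainly in a single gene. In 183 of 268 (68.3%, 62.3 to 73.8) at least 50% of the summits were in 1 protein-coding gene, and in 95 all were. A total of 167 clusters overlapped 1 protein-coding gene, 40 overlapped 2, 25 overlapped 3 or more and 36 overlapped none. The 320 genes that overlapped a balanced cluster were 1.46% of protein-coding genes. Genes that held at least 50% of a cluster's summits had a median length of 71.5 kb, against 17.2 kb for all protein-coding genes. The median was 53.0 kb over all 232 hosts and 25.5 kb over all protein-coding genes that overlapped a balanced cluster. Hosts of leaning clusters were also long, with medians of 64.5 kb (leaning to Cre) and 88.1 kb (leaning to GFP). The part of gene length was not tested.

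Inside the host gene, summits were densest near the start. For the 152 majority hosts with a listed strand, each gene was cut into 4 equal lengths, which from the start onward held 36.3% (34.6 to 37.9), 26.5%, 17.4% and 19.8% of the 3304 summits. The cluster came within 1 kb of a listed start of its host in 96 of the 152. Of the protein-coding genes with a boundary peak in a balanced cluster, 174 had one in both lists, 32 in the Cre list alone and 37 in the GFP list alone. The same split over all protein-coding genes is not given here, so these counts are a description. In 4 of the 32 and 5 of the 37, the boundary peak overlapped a peak of the other list whose own summit lay beyond 1 kb.

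A few genes hosted several balanced clusters. Sox5 (3 clusters, 71 peaks), a SOX factor that works with Sox6 and Sox9 in cartilage, Csgalnact1 (3, 70 peaks), which starts chondroitin sulfate chains, and Aff3 (3, 61 peaks), a transcription elongation factor gene, had the most. Col11a1, Fry, Lrba, Sox6, Vps13d and Xylt1 had 2 each, so that 9 genes accounted for 21 clusters and the 232 clusters with a host had 220 different hosts. Another cluster of 12 or more peaks lay within 20 kb of 15 balanced clusters and within 100 kb of 66. The share of peaks inside balanced clusters differed among chromosomes, from 43.5% on chromosome 8, where Wwp2 and Nfix lie, to 9.38% on chromosome 10 and 6.32% on the X chromosome.

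Transcription factors of the chondrocyte lineage were often hosts. Peak numbers below are those of the whole cluster unless summits in the gene are named. Of 29 such genes, 10 (34.5%) overlapped a balanced cluster, against 1.46% of all protein-coding genes, and the list's genes are long, with a median of 121 kb. Nfix, a nuclear factor I gene, had 41 Cre and 47 GFP peaks over 75.6 kb. Sox5 had 31 Cre and 40 GFP peaks in its 3 clusters, and Sox6 had 17 and 16 in 2. Hif1a, the oxygen-sensing factor that supports hypoxic growth plate cartilage, had 13 Cre peaks covering 6506 bp and 8 GFP peaks covering 3628 bp, and its peaks of highest fold overlapped, with a pileup of 28 in each list. Foxc1, a forkhead factor of skeletal development, had 14 and 13 peaks in 15.97 kb, of which 4 and 2 summits lay in the short gene itself.

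Prrx1, a homeobox factor of limb mesenchyme, had 13 Cre and 8 GFP peaks, Zbtb20, a zinc finger repressor, had 10 and 17 in its balanced cluster, Nfia had 8 and 12, and Mef2d, a MADS-box factor, had 7 and 6 with only 1 Cre summit in the gene. Boundary peaks of both lists lay at Trps1, Hif1a, Foxc1 and Mef2d, and the balanced clusters of the other 6 had none. The list of factors was chosen with earlier results of these peaks known, so its share is a description.

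Cartilage matrix genes overlapped balanced clusters in 9 of 26 cases (34.6%), with a median gene length of 24.1 kb over the list. At Col9a1 the 43 Cre peaks covered 10955 bp and the 51 GFP peaks 14443 bp, and all 94 summits were inside the gene. Col9a3 had 13 and 18 peaks, and at its ends only the Cre list called a peak, with a pileup of 10. The larger Col11a1 cluster had 12 Cre and 14 GFP peaks filling 78.1% of 12.8 kb, while the smaller was sparse. Cnmd, which encodes the growth plate protein chondromodulin, had 9 and 8 peaks, Ucma, a matrix protein of early chondrocytes, 7 and 9, Col27a1 6 and 10, and Col11a2 6 and 7. Summits in the gene itself were fewer, 2 and 2 at Ucma, 1 and 3 at Col27a1 and 4 and 4 at Col11a2. Cre share of covered length was 51.3% at Cnmd, 33.8% at Ucma and 36.4% at Col27a1.

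Col2a1, encoding the main collagen of cartilage, lay in a cluster of 27 Cre and 25 GFP peaks over 69.5 kb whose host was Senp1, a SUMO protease gene beside it. Senp1 held 14 of the 52 summits and Col2a1 held 2 Cre and 4 GFP summits. Boundary peaks of Col2a1 were counted in the Cre list alone, although 1 of the 2, with a pileup of 14, overlapped a GFP peak whose summit lay more than 1 kb from the gene end. The Cre list gave 47.1% of the covered length of the cluster.

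Genes that build sulfated proteoglycan were hosts in 3 of 20 cases, and another, the sulfate transporter Slc26a2, overlapped a balanced cluster. Xylt1, which attaches the first sugar of a glycosaminoglycan chain, had 61 Cre and 69 GFP peaks in 2 neighbouring clusters of 65.5 and 64.7 kb. Csgalnact1 had 38 Cre and 32 GFP peaks over its 3 clusters, with Cre shares of covered length of 43.2%, 49.98% and 61.7%. Papss2, which makes the sulfate donor, had 20 and 25 peaks filling 37.9% of 27.5 kb, and only GFP boundary peaks were counted there, 1 of the 2 overlapping a Cre peak. At Slc26a2 the GFP list called 2 boundary peaks, the higher with a pileup of 17, and no Cre peak overlapped them.

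Other groups of genes were less represented. Balanced clusters overlapped 1 of 14 genes of hypertrophy and mineralization (Sparc, osteonectin, 27 Cre and 21 GFP peaks, 12 and 12 of the summits inside the gene), 1 of 17 AP-1 and immediate early genes (Fosl2, 8 and 10) and 1 of 26 genes of TGF-beta and BMP signalling (Ski). They overlapped 2 of 25 genes of FGF, hedgehog, Wnt and Hippo signalling, namely Fgfrl1, an FGF receptor without a kinase domain (23 and 33 peaks, 7 and 11 summits in the gene), and Boc, a hedgehog co-receptor (18 and 32). Actin and adhesion genes gave 3 of 26, led by Actn4, an actin crosslinker (42 and 40), with Myh9, nonmuscle myosin (15 and 11), and Tns3, a tensin (14 and 10). Of 14 genes of metabolism and transport, Eno1, a glycolytic enolase, was the only one (13 and 9, with 3 and 3 summits in the gene). One of 18 cytosolic ribosomal protein genes, Rpl18, overlapped a balanced cluster of 6 and 8 peaks. No gene overlapped among 18 of JAK-STAT and NF-kB signalling, among 15 deacetylases and corepressors, or in the lists of 4 markers each for the other cell types. At 1.46%, a list of 26 genes would hold fewer than 1 such gene, so these small counts carry little information.

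Below the 10 largest, Niban2 came first with 35 Cre and 29 GFP peaks, as many in all as the tenth. A second cluster at Xylt1 followed with 27 and 33, then Frmd8 with 26 and 30 and Fgfrl1, an FGF receptor family gene, with 23 and 33. Senp1, a SUMO protease gene, and Chd2, a chromatin remodeler gene, each had 27 and 25, over 69.5 kb and 43.6 kb. At Hoxa10 the cluster had 24 Cre and 27 GFP peaks over 31.5 kb. Boc, a hedgehog coreceptor gene, had 18 and 32, and Ahnak had 23 and 26. The next 4 had 48 peaks each. Sparc, which encodes the matrix protein osteonectin, and Kmt2e each had 27 and 21, and Creb3l2, a membrane-bound factor that supports secretion of cartilage matrix, had 24 and 24 over 74.8 kb. Cd9, a tetraspanin, had 25 and 23 in 26.2 kb with 15 of 29 sites shared. Among smaller clusters, Hspg2, which encodes the proteoglycan perlecan, had 19 and 19, Mbnl1 and Mbnl2, which encode splicing regulators, had 21 and 15 and 23 and 13, and Hoxc10 had 25 in all.

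Long noncoding RNA genes overlapped 94 of the 268 balanced clusters (35.1%, 29.4 to 41.1), and in 19 clusters such a gene held at least 50% of the summits. The matching share of other clusters is not given here, and the part of cluster span in it was not tested. The Kmt2e cluster had 23 Cre and 16 GFP summits inside 5031425E22Rik, a noncoding gene of 52.1 kb. The Chd2 cluster had 13 and 11 inside Chaserr, a noncoding RNA gene next to Chd2 known to restrain it. The cluster named by Frmd8, which held only 2 of its 56 summits, contained Neat1 and Malat1, abundant nuclear RNAs: Neat1 had 5 Cre and 6 GFP summits and Malat1 had 2 and 8. All 36 summits of the Mbnl2 cluster were in Gm52122. H3K27ac has no strand, so where genes overlapped, a summit inside both cannot be given to either.

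Balanced clusters without a protein-coding gene numbered 36, of which 17 overlapped a noncoding RNA gene. The largest, chr15:85634082-85706855, had 32 Cre and 32 GFP peaks over 72.8 kb, lay 28054 bp from Ppara and contained Mirlet7c-2, and its peaks of highest fold had pileups of 26 (Cre) and 37 (GFP). A cluster at chr17:79293652-79307427 had 16 and 13 peaks, 26295 bp from Cdc42ep3. One at chr12:86885132-86900875 had 12 and 10 peaks and ended 317 bp from Irf2bpl, and one at chr6:51162326-51173360 also had 12 and 10. At chr7:73589093-73619621, 47346 bp from Chd2, 8 Cre and 13 GFP peaks lay in a cluster with 10 summits in Gm30149. At Mir100hg (chr9:41580195-41588741), all 10 Cre and 10 GFP summits were inside this microRNA host gene, and they filled 58.9% of 8.55 kb.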

How the data were processed

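H3K27ac ChIP-seq peaks of 1 Cre and 1 GFP library were analysed. Per the submitters' processing notes, bcl2fastq 1.8.4, BWA, Picard, SICER and build mm10 were used. The deposited lists, 1 per library, have the name and column order of MACS2 output, whose version, settings and control the sources used here do not give. Each deposited row gives an integer score, a fold enrichment (a ratio at the summit), −log10 p-values and −log10 q-values, and, in another column, the deposited summit offset from the peak start. These are the authors' values. They rank peaks within their own list, and folds of the lists are set side by side without rescaling. The fold and −log10 p were solved for the whole number of fragments at the summit (pileup), which succeeded for 100% of peaks within 0.001, under the assumption of MACS2's Poisson formula.

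Python 3.11.15, pandas 2.3.3, numpy 2.4.6, scipy 1.17.1 and matplotlib 3.10.9 were used. Peaks within 12.5 kb were joined, overlap was at least 1 bp, and genes, starts and sequences came from RefSeq tables of GRCm38.p6, whose coordinates are those of mm10. Exons and introns were not distinguished. Intervals are exact Clopper-Pearson intervals for shares and order-statistic intervals for medians, at 95%. With 1 library per group there was no test. Joining, overlap and pileup steps were tested on simulated peaks. The planned transcription start windows were replaced by windows around both gene ends, because starts were listed for 79.9% of genes.

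The clusters, gene lists and settings were chosen with earlier results of these data known. Named genes were the 10 hosts with most peaks, those next in order, the extremes of span, density, covered-length share and summit fold, clusters without a coding gene, clusters next to the limits, and list members; genes with long 1-library runs and wide peaks were chosen after their values were seen. Not every gene the rule names is reported here.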

Additional observations from a re-analysis of the deposited data

How the results depend on the processing

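The number of balanced clusters was 268, from 186 to 376 under other joining gaps, minimum peak numbers and share ranges, but 122 when only peaks with −log10 q of 5 or more were used and 124 when peaks of 1 list within 500 bp were merged first. Joining within 5 kb or 20 kb gave shared Cre shares of 61.1% and 53.4%, GFP shares of 57.7% and 51.4%, boundary shares of 9.65% and 13.2%, median spans of 11.6 and 31.5 kb and median gaps of 350 and 484 bp. Merging within 500 bp gave 52.0%, 50.996%, 7.59%, 31.1 kb and 1091 bp. Overlap of 50% of both peaks gave shares of 26.5% and 25.9%, and a peak of the other list within 1 kb gave 86.0% and 84.5%. GFP shares were 56.3% and 52.5% for Cre shares of 40 to 60% and 30 to 70%. Boundary shares were 10.02% with −log10 q of 5 or more, 12.8% and 9.76% for 10 and 15 peaks, and 5.71% and 22.8% for windows of 500 bp and 2.5 kb. Median spans for 10 and 15 peaks were 16.5 and 24.95 kb. The other 42 values, among them those of Cre share of covered length, gene content and promoter strings, stayed within the main interval or within 1.5 times the main count.

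No paired analysis was possible because each group had 1 library. Pileups of about 12 fragments limit every peak call, so a site missing from a list may lie just under the caller's threshold, and how far this moved the counts was not tested.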
